A study of Mus musculus with 35 samples.

Results

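Brain nuclear and imprinted long noncoding RNAs (lncRNAs) were taken as the rows of 8 gene symbols, namely Malat1, Neat1, Meg3, Miat, Rian, Mirg, Snhg11 and Peg13. Of these 8 symbols, 1 (Snhg11) had a row among the 32544 gene rows of the count tables used here. The other 7, Malat1, Neat1, Meg3, Miat, Rian, Mirg and Peg13, were not analysed here, so the results describe Snhg11. Of the 32544 row symbols, 243 are annotated as lncRNA genes in RefSeq.

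RNA came from the hippocampus of male C57BL/6JOlaHsd mice, 7 to 9 weeks old when used, that received an intra-amygdala microinjection of kainic acid (IA-KA), a glutamate receptor agonist that sets off status epilepticus, or of PBS as control (IA-PBS). Tissue was collected 24 h or 2 weeks after injection. Per the study's methods, IA-KA mice carried an injection cannula and were given lorazepam after the kainic acid injection, to lessen seizures and deaths. Whether IA-PBS mice were given lorazepam is not given in the sources used here. Each library held either total RNA (input) or RNA immunoprecipitated with an antibody to N6-methyladenosine (m6A). The labels give total RNA for the input libraries and polyA RNA for the immunoprecipitates, so the 2 kinds of library may differ by more than the antibody step.

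There were 16 input libraries, from 3 IA-PBS and 4 IA-KA mice at 24 h and from 3 IA-PBS and 6 IA-KA mice at 2 weeks. There were 19 m6A libraries, from 3 IA-PBS and 5 IA-KA mice at 24 h and from 5 IA-PBS and 6 IA-KA mice at 2 weeks. Counts totalled 1652933 to 34564536 per library, except in 3 input libraries at 24 h that held 3171 to 34486. Of 16 mice with both kinds of library, 13 had an input of at least 100000 counts, and only these 13 entered comparisons of m6A with input. In bulk tissue, fewer cells of a type and less RNA per cell cannot be told apart. The library pair of IA-KA mouse 8 at 24 h stood apart from its group, with 16.4% to 17.4% of counts on mitochondrial genes against 1.62% to 2.74% in the other 24 h IA-KA libraries, and with 28496 and 28574 genes detected. The 2-week m6A library of IA-KA mouse 6 also stood apart, with 17.5% mitochondrial counts and 27003 genes detected. The Snhg11 values that these 2 mice moved are given without them too.

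Snhg11 is small nucleolar RNA host gene 11, a spliced lncRNA gene whose introns carry small nucleolar RNAs. Host genes of this kind release the small RNA from the intron, and the spliced remainder persists as a noncoding transcript. In brain, Snhg11 RNA is known as abundant in neurons, where it lies in the nucleus, as do Malat1, Neat1, Miat and the imprinted Meg3. m6A is laid down on nascent RNA by the METTL3 and METTL14 complex, mostly at adenosines inside short motifs with GGACT at their core, and antibody pulldown enriches fragments that carry it.

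In RefSeq on GRCm38.p6 (mm10), Snhg11 lies on chr2:158375713-158386474 on the plus strand and spans 10762 bases. Within Snhg11 itself, RefSeq places 2 snoRNA genes of 133 bases each, LOC115489592 at chr2:158378222-158378354 and Gm25129 at chr2:158379534-158379666. Snhg17, another snoRNA host, lies 14191 bases away. The nearest coding genes are Ralgapb at 23356 bases and Lbp at 42861 bases.

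GENCODE release M39 lists 7 Snhg11 transcripts, and its canonical transcript has 5 exons and 5864 bases. A search of its transcribed strand for the letters GGACT found 11 matches, or 1.88 per kb. The other 6 transcripts hold 2 to 4 matches each. Among canonical transcripts within 20% of this length, 96.2% of 78 lncRNAs and 99.3% of 3387 protein-coding transcripts hold at least 1 match, with medians of 6 and 5 matches. A density at or above that of canonical Snhg11 was found in 26.1% of 32884 canonical lncRNA and 13.4% of 21770 canonical protein-coding transcripts of any length. The matches are a description of the letters and do not show where m6A lies. Exon 2 holds 2 matches and the last exon, of 5207 bases, holds 9. The first pair is shown because all 7 transcripts carry it, and the second because its matches stand closest together and only the canonical transcript carries it. Both are printed in the direction of transcription from GENCODE, with GGACT in capitals.
Snhg11 canonical transcript, bases 239 to 342: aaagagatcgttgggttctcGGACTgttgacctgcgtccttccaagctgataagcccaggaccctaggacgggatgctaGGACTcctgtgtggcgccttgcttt
Snhg11 canonical transcript, bases 4396 to 4471: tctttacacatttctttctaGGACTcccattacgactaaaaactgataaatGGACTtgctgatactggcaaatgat

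Snhg11 was an abundant transcript in all 8 groups. Its level is given in CPM, the share of a library's counts that fell on the gene, scaled so that the whole library sums to 1000000. Per kb of canonical transcript, it averaged 134.8 CPM over the 13 inputs of at least 100000 counts, above 98.9% of the 14273 genes with 1 CPM or more and a GENCODE length. Among the 56 lncRNAs in that set it ranked 4th, behind Zfas1, AW822252 and C920009B18Rik. In the 19 m6A libraries it averaged 163 CPM per kb and ranked 3rd of 61 lncRNAs. Exon lengths stand for the counted features here, and a different transcript choice would change this scale.

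In the 2-week inputs, the IA-PBS mice had 1129, 916 and 1021 CPM of Snhg11 in mice 2, 3 and 4, a mean of 1022 ± 107 (SD, n = 3). The 6 IA-KA mice ranged from 608 to 961 CPM with a median of 726, a mean of 749 ± 134 (SD, n = 6). Of the 6 IA-KA mice, only mouse 5, at 961 CPM, lay within the range of the IA-PBS mice.

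In the 24-h inputs, the only IA-PBS library of at least 100000 counts (mouse 1) had 837 CPM of Snhg11, with an exact 95% interval of 821 to 853 that covers counting error only. Mouse 71 had 3 Snhg11 counts among 4621, or 649 CPM (95% interval 134 to 1896), a count no larger than the floor of 3. Mouse 73 had 39 among 34486, or 1131 CPM (95% interval 804 to 1546). The IA-KA inputs gave 688 CPM in mouse 67, 916 in mouse 98 and 270 in mouse 8, while mouse 97 had 3 counts among 3171 (946 CPM, 95% interval 195 to 2762). The IA-PBS values lie inside the range of the IA-KA values apart from mouse 73, and the lowest value of the 16 inputs is that of mouse 8.

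In the 24-h m6A libraries, the IA-PBS mice had 954, 958 and 1007 CPM of Snhg11 in mice 71, 73 and 1, a mean of 973 ± 29.5 (SD, n = 3). The IA-KA mice had 653 CPM in mouse 67, 904 in mouse 98, 786 in mouse 97, 777 in mouse 79 and 365 in mouse 8, a mean of 697 ± 206 (SD, n = 5). All 5 IA-KA values were below all 3 IA-PBS values.

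In the 2-week m6A libraries, the IA-PBS mice had 882, 902, 1343, 1103 and 2088 CPM of Snhg11 in mice 50, 78, 2, 3 and 4, a mean of 1264 ± 497 (SD, n = 5). The 6 IA-KA mice ranged from 554 to 1343 CPM with a median of 936, a mean of 907 ± 279 (SD, n = 6). The groups shared the range from 882 to 1343 CPM, and 3 of the 6 IA-KA values (554, 667 and 877 CPM in mice 21, 42 and 6) lay below every IA-PBS value. The 2088 CPM of IA-PBS mouse 4 is the highest Snhg11 value of all 35 libraries.

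**Figure D1:**
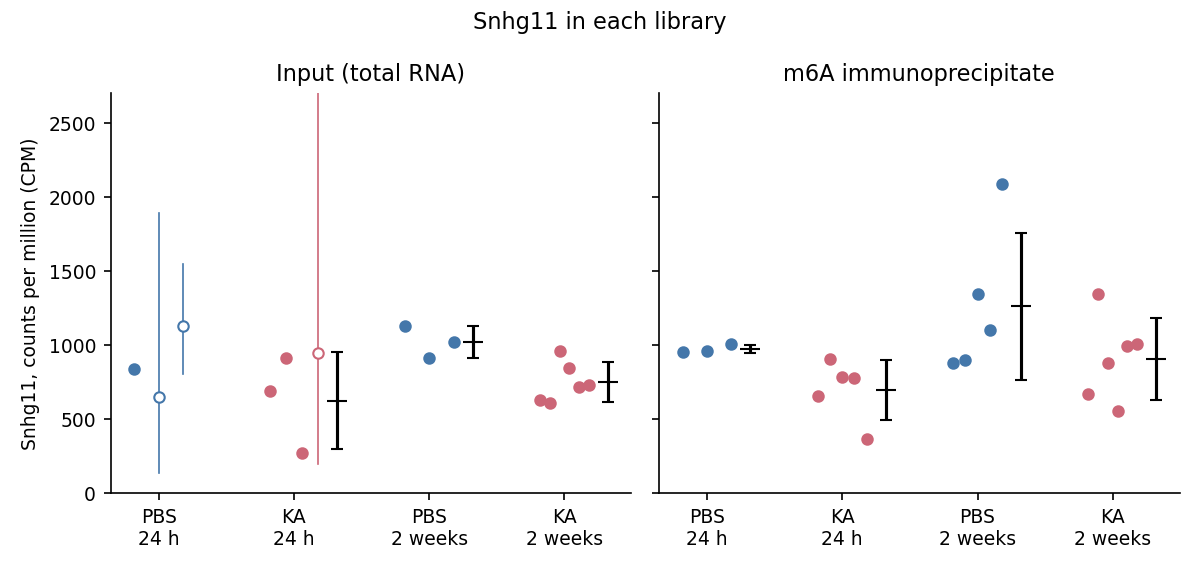
Snhg11 in CPM (linear axis from 0) in each of the 35 libraries, inputs on the left and m6A immunoprecipitates on the right, IA-PBS in blue and IA-KA in red, where filled points are libraries of at least 100000 counts, open points with exact 95% counting intervals (the highest, to 2762, runs past the axis) are the 3 shallow ones, and black bars give mean ± SD of the filled points. The 5 IA-KA m6A libraries at 24 h, from 365 to 904 CPM, all sit below the 3 IA-PBS ones, while at 2 weeks the m6A groups overlap.

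Whether Snhg11 was enriched in the m6A fraction was asked within mice, pairing each immunoprecipitate with the input of the same animal. By their column names, inputs and immunoprecipitates fell in separate library sets, so the set and the antibody step cannot be told apart here. Snhg11 was recovered in the immunoprecipitate at about the level of its input. Over all 13 mice, its log2 fold change of m6A over input was 0.06 ± 0.10 (SE, 95% interval -0.15 to 0.26; adjusted p = 0.70, edgeR quasi-likelihood test with mouse as a block). To be called here, a gene had to pass an adjusted p of 0.05 and differ by more than 1 on the log2 scale, and 274 of 14640 genes tested were called, or 1.87%. Snhg11 was not among them (0.02 without mouse 8), and 59.8% of the genes tested had a lower log2 fold change.

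Per mouse, the plain ratio of Snhg11 CPM in m6A over input was above 1 in 10 of 13 mice. It was 1.203 in IA-PBS mouse 1 at 24 h, and 1.19, 1.205 and 2.04 in IA-PBS mice 2, 3 and 4 at 2 weeks. IA-PBS mouse 4 stands above the other 3. In the 24-h IA-KA mice it was 0.949 in mouse 67, 0.987 in mouse 98 and 1.35 in mouse 8. Mouse 8 is the only 24-h IA-KA mouse of these 3 with a ratio above 1. In the 2-week IA-KA mice it ranged from 0.911 in mouse 21 to 1.40 in mouse 9, and was above 1 in 5 of 6.

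The plain ratio moves with the rest of the transcriptome. The median log2 ratio over 9541 genes with a mean of 10 CPM or more was above 0 in all 13 mice. For Snhg11 the mean log2 ratio was 0.27 ± 0.30 (SD, n = 13; exact sign-flip permutation test over mice, two-sided p = 0.00317, adjusted p = 0.0317 over 10 tests). With the median gene of each mouse subtracted, it was 0.06 ± 0.33 (SD, n = 13; exact p = 0.543, adjusted p = 0.635), from -0.50 in IA-KA mouse 67 to 0.79 in IA-PBS mouse 4, and above 0 in 8 of 13 mice. Scaling by library size alone gave the same contrast as the plain ratio, with a log2 fold change of 0.27 (adjusted p = 0.020) while the median of all genes moved from -0.03 to 0.18.

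By group, the edgeR log2 fold change of Snhg11 in m6A over input was 0.22 ± 0.17 (SE, 4 mice, 95% interval -0.18 to 0.63; adjusted p = 0.51) in IA-PBS mice, where 0.854% of the genes tested were called. It was 0.04 ± 0.13 (SE, 6 mice, 95% interval -0.25 to 0.32; adjusted p = 0.87) in IA-KA mice at 2 weeks, where 2.32% were called. In IA-KA mice at 24 h it was -0.16 ± 0.20 (SE, 3 mice, 95% interval -0.63 to 0.30; adjusted p = 0.78), where 0.143% were called. Without mouse 8 the 24-h value was -0.39 (adjusted p = 0.0044), short of the fold required for a call, and the number of genes called went from 20 to 636. Both values then rest on 2 mice, 67 and 98, with 1 residual degree of freedom per gene. The edgeR 95% interval of the Snhg11 value, -0.62 to -0.17, also uses degrees of freedom shared over all genes. It is therefore not an interval on these 2 mice alone. Without mouse 6 the 2-week IA-KA value was 0.0031 (adjusted p = 0.99). Without IA-PBS mouse 4 the IA-PBS value was 0.04 (adjusted p = 0.88).

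**Figure D2:**
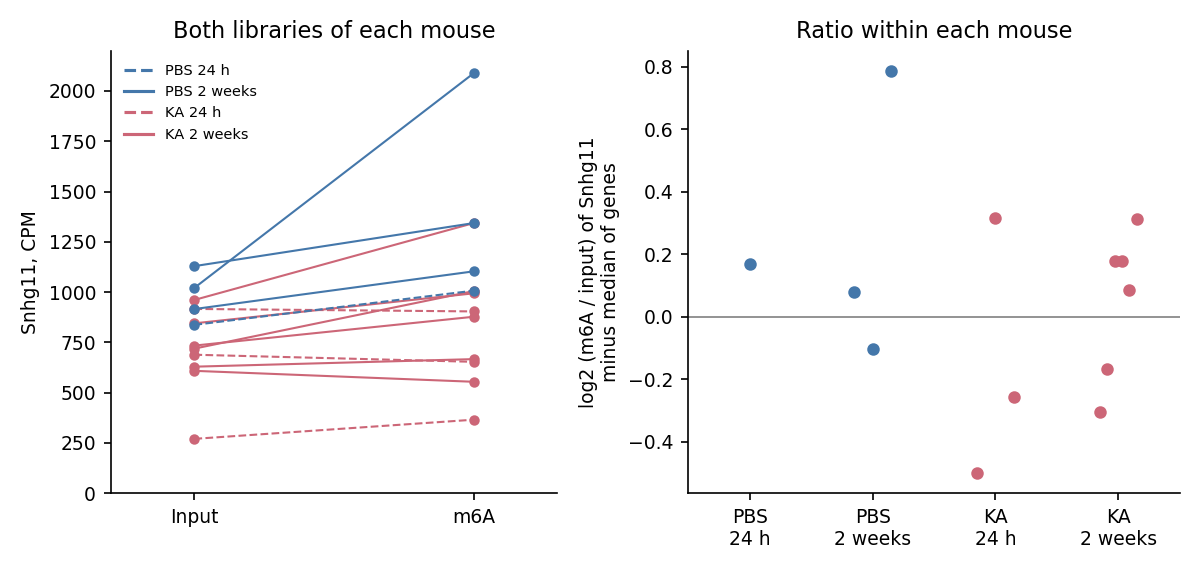
Left, Snhg11 CPM in the input and m6A library of each of the 13 mice (linear axis from 0, 1 line a mouse, dashed at 24 h, solid at 2 weeks, IA-PBS in blue, IA-KA in red). Right, the log2 ratio of m6A over input for Snhg11 minus the median log2 ratio of 9541 genes in the same mouse, 1 point a mouse; points lie on both sides of 0, from -0.50 to 0.79.

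The response of total Snhg11 to kainic acid was asked in the inputs. At 2 weeks, Snhg11 was lower in IA-KA than in IA-PBS mice by a log2 fold change of -0.42 ± 0.16 (SE, 95% interval -0.75 to -0.08), with an unadjusted p of 0.0186 that did not pass adjustment (adjusted p = 0.30, edgeR). The same comparison called 0% of 13752 genes, with 1938 genes at an unadjusted p under 0.05 and 116 called by DESeq2, which gave Snhg11 a log2 fold change of -0.42 (adjusted p = 0.17). A lower log2 fold change than that of Snhg11 was found in 6.70% of genes, against a median of all genes of 0.02. A change of the same size or larger, in either direction, was found in 21.4% of genes. An exact permutation test on log2 CPM of Snhg11 alone gave a difference of -0.46 (two-sided p = 0.0476, where 0.0238 is the smallest possible, adjusted p = 0.159 over 10 tests). The value was between -0.50 and -0.37 with each library left out in turn, and -0.44 with the set of libraries, read from the prefix of their column names, as a block. Its 95% interval took in 0 without IA-PBS mouse 2 (-0.82 to 0.02) or mouse 4 (-0.85 to 0.0010). With any other library left out, the interval stayed below 0. With inputs of at least 100000 counts in 1 fit of 4 groups it was -0.99 to 0.13. In set N, which alone held both treatments, IA-KA mice 42, 21 and 5 had 629, 608 and 961 CPM against 916 to 1129 CPM in the 3 IA-PBS mice.

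At 24 h the inputs could not place Snhg11. Its log2 fold change was 0.09 ± 1.06 (SE, 95% interval -1.99 to 2.16; adjusted p = 1.0), in a comparison that called 0.583% of genes, and the sign turned under 9 of 14 alternatives. With the 3 shallow inputs left out, 1 IA-PBS library remained, assumed to vary like the other groups, and the log2 fold change was -0.16 (SE 0.43, adjusted p = 0.89). Without mouse 8 alone it was 0.18 (adjusted p = 0.96), and the number of genes called went from 75 to 1333.

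In the m6A libraries at 24 h, Snhg11 had a log2 fold change of -0.53 ± 0.29 (SE, 95% interval -1.17 to 0.11; adjusted p = 0.98) in IA-KA over IA-PBS mice. The 3 IA-PBS and 5 IA-KA values did not overlap, and the exact permutation test gave the smallest two-sided p it can, 0.0357 (adjusted p = 0.159 over 10 tests). Of the genes tested, 0.00607% were called, which is 1 gene of 16470. Without mouse 8 the log2 fold change of Snhg11 was -0.41 (adjusted p = 0.70) and 45 genes were called. Blocking on the library set gave -0.42 (adjusted p = 1.0). In set 4, which alone held both treatments at 24 h, the 2 IA-KA values (786 and 777 CPM) lay below the 2 IA-PBS values (954 and 958 CPM).

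In the m6A libraries at 2 weeks, Snhg11 had a log2 fold change of -0.42 ± 0.28 (SE, 95% interval -1.01 to 0.18; adjusted p = 0.87) in IA-KA over IA-PBS mice, in a comparison that called 0% of 16157 genes, with 809 at an unadjusted p under 0.05 and 15 called by DESeq2. Without IA-PBS mouse 4 the difference was smaller, at -0.16 (adjusted p = 0.89), and without IA-KA mouse 6 it was -0.46 (adjusted p = 1.0). Blocking on the library set gave -0.78 (95% interval -1.53 to -0.04, unadjusted p = 0.0411, adjusted p = 1.0, edgeR), an interval that leaves out 0. At 2 weeks only set 5 held m6A libraries of both treatments, and in it the 3 IA-KA values (554, 994 and 1005 CPM) lay below the 3 IA-PBS values (1103, 1343 and 2088 CPM). The exact permutation test gave p = 0.16 (adjusted p = 0.267).

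Whether kainic acid moved the share of Snhg11 in the m6A fraction was asked by the treatment-by-assay term in the 9 mice at 2 weeks. The m6A-over-input log2 ratio of Snhg11 was lower in IA-KA mice by -0.23 ± 0.24 (SE, 95% interval -0.76 to 0.29; adjusted p = 0.88), in a comparison that called 0.00636% of genes. Without IA-PBS mouse 4 this was 0.04 (adjusted p = 1.0), and without IA-KA mouse 6 it was -0.27 (adjusted p = 0.92). The difference between the IA-KA effects at 2 weeks and 24 h in m6A libraries was 0.12 ± 0.40 (SE, 95% interval -0.73 to 0.96; adjusted p = 1.0), where 0.00573% of genes were called. The median of all genes in that comparison was -0.11. The m6A comparisons of treatment, ratio and time share libraries, so these values are not independent of each other.

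**Figure D3:**
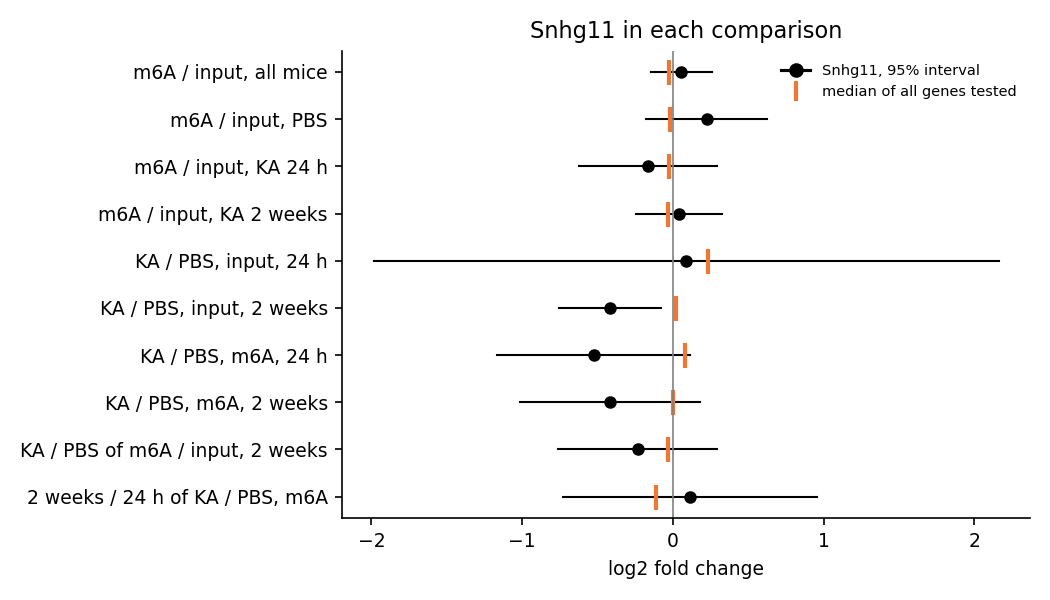
log2 fold change of Snhg11 (black point, with its 95% interval from edgeR) in each of the 10 comparisons named on the vertical axis, with the median of all genes tested as an orange tick. Only the interval of IA-KA over IA-PBS in 2-week inputs, -0.75 to -0.08, leaves out 0, and the interval of the 24-h inputs runs from -1.99 to 2.16.

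**Figure D4:**
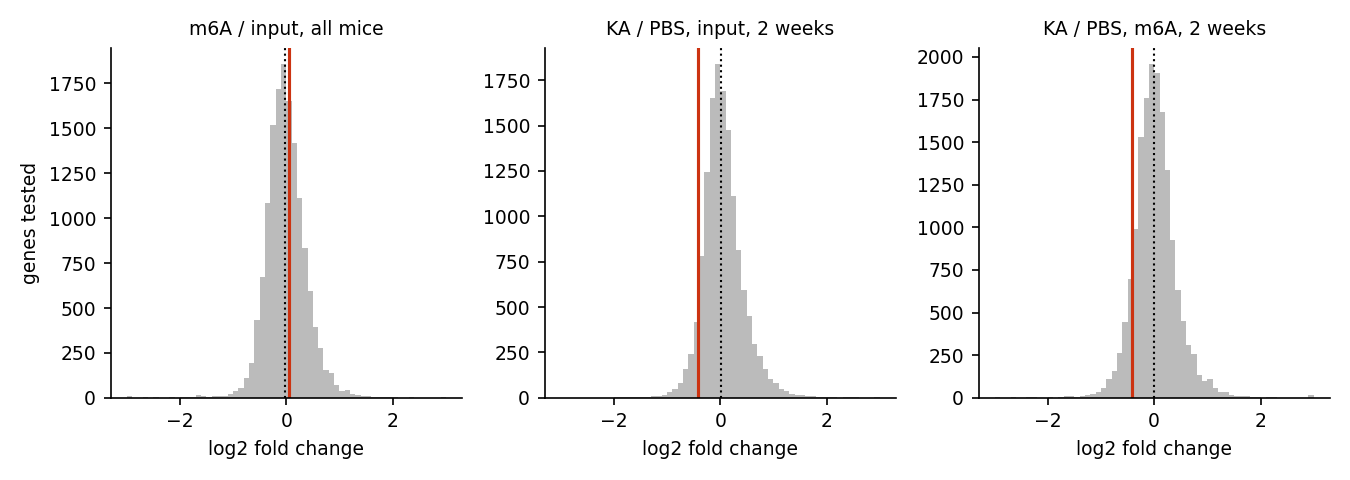
Distribution of the log2 fold changes of all genes tested in 3 comparisons (bars count genes, values beyond 3 in size are drawn at 3), with the median as a dotted line and Snhg11 as a red line. Snhg11 lies close to the median for m6A over input and in the lower part of the distribution for IA-KA over IA-PBS, where 6.70% of genes in 2-week inputs and 10.8% in 2-week m6A libraries lie below it. Changes of the same size or larger, in either direction, make up 21.4% and 23.8% of genes in these 2 comparisons.

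Markers of the hippocampal cell types were present in every group. Of the 10 excitatory neuron and 8 inhibitory neuron markers, none was at 0 in all libraries of a group. Because Snhg11 is a neuronal transcript, the neuron markers are given beside it. In 2-week inputs, where the Snhg11 log2 fold change was -0.42, the 10 excitatory neuron markers, which include Slc17a7, the vesicular glutamate transporter, and Camk2a, a calcium-dependent kinase, had a median log2 fold change of 0.29. Their summed level ranged from 2040 to 3080 CPM in IA-PBS and from 2136 to 4011 CPM in IA-KA inputs. The 8 inhibitory neuron markers had a median of 0.12. The 8 astrocyte markers had a median of 0.65, with sums of 2207 to 4487 CPM in IA-PBS and 3311 to 7595 CPM in IA-KA inputs. The 10 microglia markers had a median of 0.81, with sums of 141 to 222 CPM and 214 to 482 CPM. None of these markers was called, the median of all genes was 0.02, and their part in the Snhg11 difference was not tested.

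In the m6A libraries at 24 h, the excitatory neuron markers had a median log2 fold change of -0.17 in IA-KA over IA-PBS, with sums of 3118 to 5209 CPM in IA-PBS and 1215 to 3945 CPM in IA-KA libraries, and the 10 microglia markers had a median of 0.26. Other lists had medians farther from 0, among them 0.53 for the 4 blood markers tested, of 5, and 0.37 for the 6 thalamus markers. The 7 leukocyte markers tested, of 8, had a median of 1.27, with sums of 13.5 to 45.2 CPM in IA-PBS and 34.8 to 110.0 CPM in IA-KA libraries. The 7 choroid plexus markers had a median of 1.19, with sums of 46.5 to 600.8 CPM and 29.3 to 980.8 CPM, and the 9 oligodendrocyte markers had a median of -0.35, with sums of 1846 to 3762 CPM and 1345 to 2834 CPM. The sums of the 2 groups overlapped for each of these lists. For the excitatory list this came from IA-PBS mouse 1, whose 3118 CPM lay below every IA-KA sum but that of mouse 8. The 8 inhibitory neuron markers had a median of 0.12, and their sums overlapped too. The sums of the 7 endothelial markers, with a median of 0.22, did not overlap. These were 238.8 to 296.3 CPM in IA-PBS and 298.8 to 494.3 CPM in IA-KA libraries. In set 4, the excitatory sums were 3827 and 3680 CPM in IA-KA mice 97 and 79. They were 5209 and 5055 CPM in IA-PBS mice 71 and 73 of that set. The median of all genes was 0.08, and the part of these lists in the Snhg11 difference was not tested. At 2 weeks the excitatory neuron, inhibitory neuron and microglia medians were -0.24, -0.02 and 0.72. Other medians there were -0.28 for oligodendrocyte, -0.245 for thalamus, -0.14 for endothelial and -0.06 for choroid plexus markers. Blood markers had 0.70, leukocyte markers 0.66 and astrocyte markers 0.29, beside a median of all genes of -0.0013. None of these markers was called in the m6A comparisons of treatment. The lowest excitatory sums among libraries of at least 100000 counts, 1450 CPM in the input and 1215 CPM in the m6A library, were both those of mouse 8, as were the lowest Snhg11 levels.

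Across the 10 comparisons, 3 cell type markers were called. Of all genes tested, 0.583% were called in the 24-h inputs, where 4 leukocyte markers were tested. For m6A over input, 1.87% of all genes were called over the 13 mice and 0.854% in IA-PBS mice. Those 2 comparisons each tested 7 endothelial and 10 excitatory neuron markers. Lyz2, a lysozyme gene on the leukocyte list, was higher in IA-KA than in IA-PBS inputs at 24 h (log2 fold change 3.19 ± 0.73, SE, edgeR adjusted p = 0.0068), the comparison that holds the 3 shallow libraries. It stayed called in 2 of the 4 fits with a library left out that still tested it, and lost the call without IA-PBS mouse 1 or 71. Pecam1, an endothelial adhesion molecule gene, was lower in m6A than in input over all 13 mice (log2 fold change -1.72 ± 0.33, SE, edgeR adjusted p = 0.0018), with each mouse left out too, and in IA-PBS mice (log2 fold change -2.56 ± 0.30, SE, edgeR adjusted p = 0.014). Calb1, the calbindin gene on the excitatory neuron list, was lower in IA-PBS mice (log2 fold change -1.09 ± 0.16, SE, edgeR adjusted p = 0.029). In IA-PBS mice, Pecam1 and Calb1 were both called without mouse 2 or 4 but not without mouse 1 or 3.

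The genes whose levels followed Snhg11 most closely across libraries were named by the highest Pearson correlation of scaled log2 CPM, as a description. Over the 13 inputs and 9072 genes these were Dlg2 (r = 0.962), a postsynaptic scaffold gene, Ttc14 (r = 0.954) and Kif5a (r = 0.952), a neuronal kinesin heavy chain gene. Over the 19 m6A libraries and 9785 genes they were Hecw1 (r = 0.927), Cdr1 (r = 0.915) and 2410089E03Rik (r = 0.91). The inputs and the m6A libraries share mice and the outlying pair of mouse 8, and libraries of each kind differ in depth. Without mouse 8 the input correlations were 0.864 for Dlg2, 0.83 for Ttc14 and 0.822 for Kif5a, which then ranked 16th, 38th and 49th. In m6A libraries without it they were 0.902 for Hecw1, 0.908 for Cdr1 and 0.875 for 2410089E03Rik, which ranked 3rd, 2nd and 10th.

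The chromosomal neighbours of Snhg11 were taken as the genes within 250 kb of it. Of these, 10 had rows, and 6 of them were tested in every comparison: Ralgapb, Lbp, Tgm2, Slc32a1, Actr5 and D630003M21Rik. None was called in any of the 10 comparisons, in which 0% to 2.32% of all genes tested were called. Tgm2, a transglutaminase gene, came close in the 24-h inputs, the comparison with the 3 shallow libraries, with a log2 fold change of 2.41 ± 0.67 (SE, edgeR adjusted p = 0.0504), where Lbp had 2.03 ± 0.64. In the 24-h m6A libraries Tgm2 had 1.46 and Lbp 1.22. For IA-KA over IA-PBS in 2-week inputs, the log2 fold change was -0.23 for Ralgapb, a subunit gene of a Ral GTPase-activating complex, -0.07 for Lbp, which encodes lipopolysaccharide-binding protein, and 1.01 for Tgm2, against the -0.42 of Snhg11. It was 0.48 for Slc32a1, the vesicular GABA transporter gene, and -0.61 for Actr5, and it was 0.18 for D630003M21Rik. Of the 6 values 3 lay above 0 and 3 below, with a median of 0.05. For m6A over input in all 13 mice their median was -0.31, from -0.74 for D630003M21Rik to 0.32 for Lbp, beside the 0.06 of Snhg11.

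The coding genes of the imprinted domains that hold Meg3, Rian and Mirg (Dlk1-Dio3) and Peg13 (Trappc9-Kcnk9) gave no calls either. Of the 8 genes listed for the first domain, 5 had rows and 4 to 5 were tested. Over all 13 mice, 6169 of the 14640 genes tested had an unadjusted edgeR p under 0.05 for m6A over input. In that comparison, the log2 fold change was 0.54 ± 0.09 (SE, adjusted p = 0.00042) for Rtl1, a retrotransposon-derived imprinted gene. It was -0.22 for Dlk1, a Notch ligand gene, -0.13 for Begain and -0.27 for Wars. Their changes with IA-KA ranged from 0.00 to 0.74 in 2-week inputs and, with Dio3, the type 3 deiodinase gene, from -1.52 to 0.76 in 2-week m6A libraries, all uncalled. At 24 h in m6A libraries they were -1.84 for Dio3, -0.54 for Begain, -0.15 for Dlk1, 0.19 for Wars and 0.20 for Rtl1. In 24-h inputs the 4 genes tested ran from -0.07 to 1.16. Dio3 medians were 4.9 or fewer CPM in every group.

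Of the 5 genes listed for the Peg13 domain, 4 had rows and all 4 were tested. Kcnk9, a potassium channel gene that is maternally expressed in brain, had an m6A-over-input log2 fold change of -0.74 ± 0.12 (SE, adjusted p = 0.00035) over the 13 mice. It was -0.42 ± 0.12 for Trappc9 (adjusted p = 0.014), -0.40 ± 0.06 for Ago2 (adjusted p = 0.00021) and 0.58 ± 0.12 for Chrac1 (adjusted p = 0.0018). All were short of the fold required for a call, in a comparison where 6169 of 14640 genes had an unadjusted edgeR p under 0.05. With IA-KA, their log2 fold changes in 2-week inputs ran from -0.47 for Kcnk9 to 0.42 for Ago2, and in m6A libraries from -0.23 for Chrac1 to 0.32 for Ago2 at 24 h and from -0.30 for Trappc9 to 0.12 for Ago2 at 2 weeks. Of the 20 other snoRNA host genes listed, 1 had a row, Zfas1. The m6A-over-input log2 fold change of Zfas1 was -0.87 ± 0.40 (SE, edgeR adjusted p = 0.12, not called), beside the 0.06 of Snhg11. By group it ran from -1.57 in IA-PBS mice to -0.31 in 2-week IA-KA mice. Its treatment values were -0.61 in 2-week inputs and 1.09 in 2-week m6A libraries, neither called.

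Proteins tied to nuclear RNA and to m6A were counted from fixed lists. All 29 genes listed for paraspeckle and nuclear speckle proteins, the bodies that Neat1 and Malat1 mark, were tested in each of the 10 comparisons, and none was called, beside the 0% to 2.32% of all genes. Their median m6A-over-input log2 fold change in all 13 mice was 0.06, beside the 0.06 of Snhg11 and a median of all genes of -0.03. Of 15 genes of the m6A machinery, 14 were tested, with a median of 0.15. In IA-PBS mice Wtap, a subunit gene of the writer complex, was lower in m6A than in input (log2 fold change -1.17 ± 0.15, SE, edgeR adjusted p = 0.019), and in 2-week IA-KA mice Ythdc1, a nuclear m6A reader gene, was higher (log2 fold change 1.01 ± 0.19, SE, edgeR adjusted p = 0.017). Of the genes tested, 0.854% and 2.32% were called in these 2 comparisons. Wtap was not called without IA-PBS mouse 1 (adjusted p = 0.078) or mouse 3 (adjusted p = 0.25, where 0 genes were called in all). Ythdc1 stayed called in 2 of 6 fits with a mouse left out, those without mouse 21 or 6. Over all 6 of these fits its log2 fold change ran from 0.90 to 1.195. No other gene of this list was called in any comparison. Of 37 other imprinted genes, 31 had rows and 24 to 29 were tested, and the single call was Nap1l5, higher in m6A than in input in 2-week IA-KA mice (log2 fold change 1.11 ± 0.11, SE, edgeR adjusted p = 0.0014), 1 of 25 tested there against 2.32% of all genes. It stayed called with each of the 6 mice left out. Of 20 genes listed as lacking a polyA tail, 12 had rows and 8 to 10 were tested. Hist1h4h, a histone H4 gene, was lower in m6A than in input over all 13 mice (log2 fold change -1.65 ± 0.36, SE, edgeR adjusted p = 0.0031), with each mouse left out too. Hist1h1c, a linker histone gene, was higher in IA-PBS mice (log2 fold change 1.08 ± 0.14, SE, edgeR adjusted p = 0.018), and stayed called only without mouse 4. The median of this list was 0.35 over all 13 mice. Of 36 other nuclear lncRNAs listed, 0 were analysed here.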

How the data were processed

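Libraries were made from hippocampal RNA with the SMARTer Stranded Total RNA-Seq Kit v2, per the labels. The tables the authors deposited hold raw counts for each gene symbol, in 4 lanes a library, on mm10 per the submitters' processing notes. No aligner, counter or strand setting is given in these sources, so reads of overlapping or antisense genes cannot be told apart. Lanes were summed. Of the table columns, 140 were used and 8, whose names match no labelled library, were not. By their names, these 8 are the 4 lanes each of an input of IA-KA mouse 79 at 24 h and of IA-PBS mouse 50 at 2 weeks. Both mice have an m6A library here, so the 2-week inputs lack a possible further IA-PBS mouse.

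Counts were tested in edgeR 4.0.16 (R 4.3.3) with TMM scaling, filterByExpr and robust quasi-likelihood fits, with Benjamini-Hochberg adjustment over all genes tested and mouse as a block for m6A against input, on inputs of at least 100000 counts. DESeq2 1.42.0, other scalings, filters, blocks and left-out libraries were alternatives. Within mice, deviations from group means in input and m6A correlated at 0.0586 to 0.842 over 9400 genes. Replicates differed by more than sampling noise. Each mouse is a separate animal. Exact intervals (Clopper-Pearson, 95%) cover counting error only, and PCR copies were not identified.

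Named genes were the 8 members, genes of their imprinted domains, called genes of the lists (at most 3 each) and the 3 genes most correlated with Snhg11. Neighbours within 250 kb, Zfas1 and the other lncRNAs that outranked Snhg11, and Slc17a7 and Camk2a as examples of their list, were named outside this rule. Members and lists were chosen with earlier results of these data known. The scripts were tested on simulated data.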

Additional observations from a re-analysis of the deposited data

How the results depend on the processing

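Snhg11 met the call rule of its comparison under none of the 151 alternatives run over the 10 comparisons, and its sign turned under 15. With libraries left out in turn, its log2 fold change of m6A over input ranged from -0.0086 to 0.10 over all mice, from 0.04 to 0.34 in IA-PBS, from -0.39 to 0.0013 in 24-h IA-KA and from -0.015 to 0.12 in 2-week IA-KA mice. For IA-KA over IA-PBS it ranged from -0.30 to 0.43 in 24-h inputs, from -0.50 to -0.37 in 2-week inputs, from -0.68 to -0.41 in 24-h m6A, from -0.53 to -0.16 in 2-week m6A, from -0.41 to 0.041 for the 2-week ratio and from 0.02 to 0.40 for the difference between times. In 24-h IA-KA mice, m6A over input was 0.11 with library size scaling and 0.11 by the exact test on plain CPM. In 24-h inputs Snhg11 was -0.030 with DESeq2, -0.46 with library size scaling, -0.10 with no filter, -0.26 with the library set as a block, -0.16 without the shallow libraries and -0.42 on plain CPM. The causes were not tested.

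The replicate block was each mouse, since both libraries of a pair come from the same animal. Without the block, Snhg11 in m6A over input was 0.11 over all mice, 0.28 in IA-PBS, -0.23 in 24-h IA-KA and 0.08 in 2-week IA-KA mice, and the 2-week ratio was -0.25. Counts of genes called without it were 234, 175, 0 and 221 for these 4 sets of mice and 0 for the ratio, against 274, 129, 20, 357 and 1 with it. It changed no call of Snhg11.

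Counts of genes called moved more than Snhg11 did. For m6A over input, 274, 129, 20 and 357 genes were called over all, IA-PBS, 24-h IA-KA and 2-week IA-KA mice. Library size scaling gave 467, 282, 242 and 592. No filter gave 606, 295 and 264 for the first 3, and DESeq2 gave 320 in IA-PBS and 125 in 24-h IA-KA mice. Leaving out a mouse gave 237 to 305, 0 to 345, 19 to 636 and 92 to 466. In 24-h inputs the count of 75 became 0 with DESeq2, 19 with library size scaling, 15 with no filter, 789 with the library set as a block and 0 without the shallow libraries, and 0 to 1333 with a library left out. In 2-week inputs the count of 0 became 116 with DESeq2 and 4 with no filter, and was 0 to 1 with a library left out. In 24-h m6A libraries the count of 1 became 156 with DESeq2, 3 with library size scaling, 22 with no filter and 0 with the set block, and 0 to 45 with a library left out. In 2-week m6A libraries the count of 0 became 15 with DESeq2 and 2 with no filter, and was 0 to 1 with a library left out. For the ratio the count of 1 became 3 with DESeq2 and 0 to 2 with a mouse left out. For the difference between times it became 5 with DESeq2 and 2 with the set block, and stayed at 1 with each library left out.

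The library-set blocks for inputs, the exact tests and the fits of called list genes with a library left out were chosen after seeing the data. Depth limited the 24-h inputs, where 2 of 3 IA-PBS libraries and 1 of 4 IA-KA libraries held under 100000 counts.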
